A study of Mus musculus with 12 samples.

Results

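The aminoacyl-tRNA synthetase genes were followed in the mouse T cell leukemia line 8946. They were chosen by gene symbol from a list of cytosolic and mitochondrial synthetases, a rule that uses no expression value, although the gene family itself was picked with earlier results of these libraries known. All 34 members were found among the 23284 gene symbols of the expression tables, 20 of them cytosolic and 14 mitochondrial. RNA sequencing covered 12 libraries, in 4 groups of 3. All cells carried a pair of retroviral vectors and had been sorted as GFP+/NGFR+. The control group carried empty MigR1 and empty NGFR vectors. The Zmiz1 group carried Zmiz1-IRES-NGFR with empty MigR1, the Notch1 group carried the Notch1 mutant L1601P-IRES-GFP with empty NGFR, and the combined group carried both inserts. Whether the 3 libraries of a group came from separate cultures, and whether the line is 1 clone, is not given in the sources used here, so p-values measure only the spread between these libraries.

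Aminoacyl-tRNA synthetases join each amino acid to its transfer RNA and so supply the charged tRNAs that ribosomes use. Separate nuclear genes encode most of the cytosolic and the mitochondrial enzymes. The class used here follows the gene symbol. Whether a gene classed as cytosolic, such as Gars or Kars, also serves mitochondria was not examined. Several cytosolic synthetases sit together in a multisynthetase complex held by the scaffold proteins Aimp1, Aimp2 and Eef1e1, while the others act outside it. A number of cytosolic synthetase genes are known targets of the transcription factor ATF4 in the amino acid response, the program that cells switch on when amino acids run short. Notch1 encodes a surface receptor that, once cleaved, works in the nucleus as a transcriptional activator and is often mutated in T cell leukemia. Zmiz1 encodes a PIAS-like coactivator. The design sets each gene alone, and both together, against the empty vectors.

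For the single-insert groups the titles and the cell line labels were at odds. The cell line label read L1601P/NGFR where the title read Zmiz1, and MigR1/Zmiz1 where the title read Notch1. The column headers went with the titles, and so did the inserted genes. Zmiz1 lay at 70.3, 67.7 and 74.4 FPKM (sequenced fragments scaled to transcript length and library size) in the libraries titled Zmiz1. It was at 47.6, 49.3 and 51.0 in the combined libraries, 0.18, 0.17 and 0.176 in control, and 0.220, 0.221 and 0.194 in those titled Notch1. Notch1 lay at 32.0, 42.2 and 22.1 FPKM in the libraries titled Notch1, at 33.5 to 37.2 in combined, 1.80 to 1.97 in control and 1.92 to 2.34 in those titled Zmiz1. The group names used here are those of the titles. All 12 T cell markers reached a mean of 1 FPKM, with summed levels of 7046 to 8820 FPKM. None of the 6 B cell, 5 erythroid or 5 fibroblast markers did, and Ms4a1, Hbb-b1, Col3a1 and Dcn were listed at 0 in all libraries. Of the 6 myeloid markers only Itgam did. The depth of the libraries in reads is unknown. Zmiz1 replicate 2 had the lowest relative depth (0.669 of control replicate 1, against 0.854 to 1.12 in the others) and also the lowest mean correlation with its fellows (0.9421, the others 0.9492 to 0.9565).

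All 34 members averaged 1 FPKM or more across the libraries and entered the tests. FPKM is per transcript length, so levels can be set side by side between genes. Mean levels of the cytosolic synthetases ran from 14.9 to 78.7 FPKM, with a median of 31.0. The mitochondrial synthetases had a median of 10.9 FPKM and a range of 2.58 to 1287. The high end of that range was Lars2, the mitochondrial leucyl-tRNA synthetase, whose 12 libraries spanned 895 to 1525 FPKM. The other 13 mitochondrial members had means of 2.58 to 29.3 FPKM. Whether all reads counted for Lars2 come from its own transcript was not tested, so its level is not set beside those of other genes. The Lars2 value is given apart from the other 13 mitochondrial members wherever levels are summed.

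Differences between groups were tested with limma on log2(FPKM + 1) over the 10152 genes that averaged 1 FPKM or more. A gene is said to have risen or fallen where the p-value, adjusted by the Benjamini-Hochberg method over all of these genes, was under 0.05. With 3 libraries against 3, the smallest p of an exact permutation test is 0.1, so these calls depend on limma's pooling of variance over genes. Whether groups of libraries overlap is given as a description only. The share of all genes whose groups did not overlap was not counted. Fold changes are log2 differences with their standard errors (SE). RNA was measured in bulk, so fewer expressing cells and less RNA per cell cannot be told apart.

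With both inserts, 11 of the 20 cytosolic synthetases rose against control and none fell. Among all genes tested, 3.97% rose and 2.49% fell in the same comparison. The median difference over the 20 cytosolic members was 0.34 on the log2 scale, against 0.02 over all genes, and 19 of the 20 differences were positive against 56.5% of all genes. The members that rose, from the largest difference, were Cars, Aars, Yars, Nars, Iars, Vars, Sars, Gars, Tars, Mars and Wars. Of the 14 mitochondrial synthetases 1 rose, Aars2, and the median over the 14 was 0.08.

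**Figure D1:**
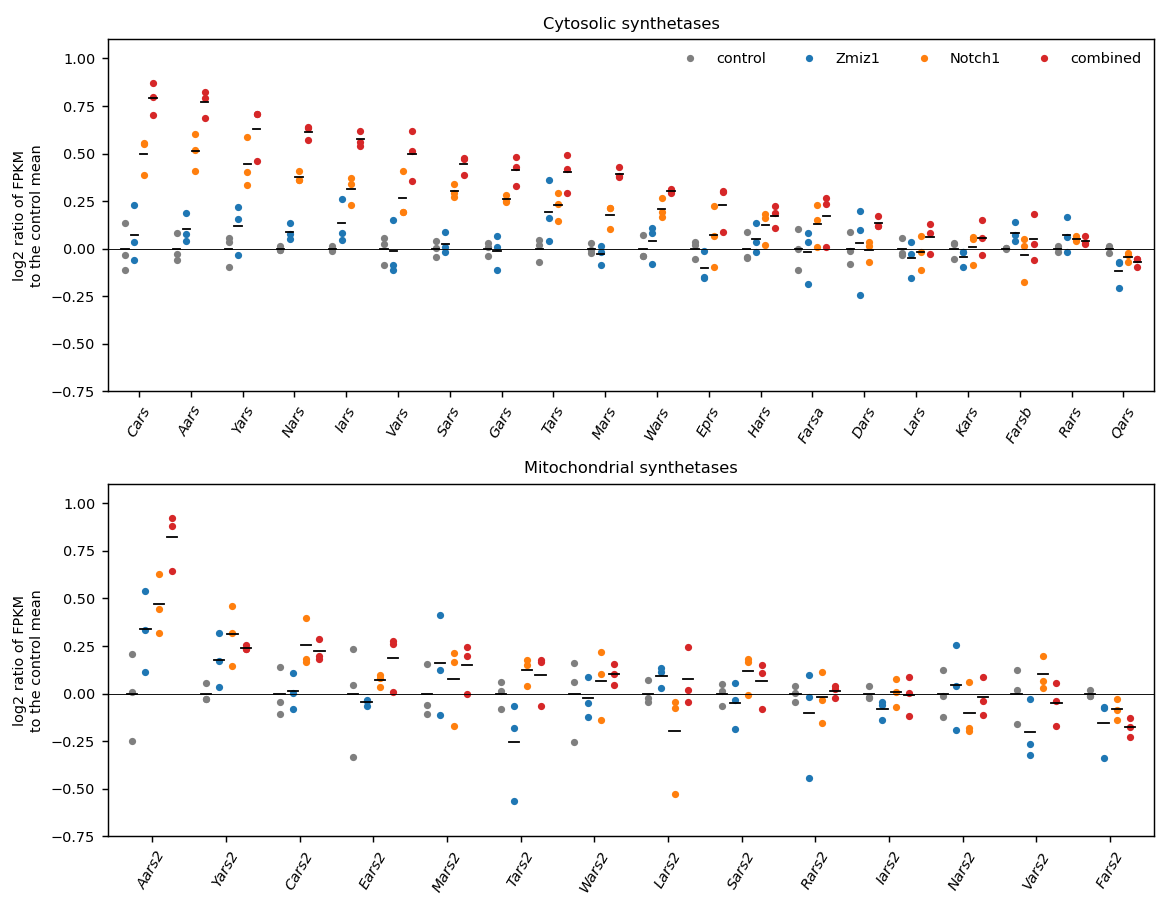
Level of each synthetase in each library, as the log2 ratio of its FPKM to the control mean (vertical axis), with genes ordered by the combined difference; points are libraries, coloured by group, and black dashes mark group means. For the 11 cytosolic genes at the left, Cars to Wars, the 3 combined libraries all lie above the 3 control libraries. They also do for Dars, Eprs, Hars and Rars, which were not called. Among mitochondrial genes Aars2 stands highest.

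Cars, the cysteinyl-tRNA synthetase (chr7:143557230-143600090, GRCm38, GENCODE M21), measured 11.4, 12 and 13.5 FPKM in control and 12.6, 11.8 and 14.4 in Zmiz1. It measured 16.1, 18.1 and 18 FPKM in Notch1 and 20, 21.4 and 22.5 in combined. The control and Zmiz1 libraries overlapped, every Notch1 library lay above both, and every combined library lay above the Notch1 ones. Cars rose by 0.75 (SE 0.09, limma adjusted p = 4.90e-04) in combined against control. Aars, the alanyl-tRNA synthetase (chr8:111033144-111057664), measured 21.6, 22.1 and 23.8 FPKM in control, and 23.1, 23.7 and 25.6 in Zmiz1. Its Notch1 libraries were at 32.2, 34.2 and 29.9 FPKM and its combined libraries at 36.2, 39.8 and 39.0. The order of the groups was that of Cars, with an overlap of control and Zmiz1 only. Aars rose by 0.74 (SE 0.07, adjusted p = 1.04e-04).

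Yars, the tyrosyl-tRNA synthetase (chr4:129189760-129219607), measured 17.9, 19.9 and 19.6 FPKM in control and 18.7, 22.3 and 21.3 in Zmiz1. Its Notch1 values were 24.1, 28.7 and 25.3 FPKM, and its combined values 26.3, 31.2 and 31.3. Notch1 and combined overlapped here, and both lay above the other groups. Yars rose by 0.60 (SE 0.09, adjusted p = 0.00312). Nars is the asparaginyl-tRNA synthetase. It measured 32.9, 32.5 and 32.4 FPKM in control and 34.4, 35.8 and 33.8 in Zmiz1. It measured 41.9, 41.9 and 43.2 FPKM in Notch1 and 50.7, 50.6 and 48.4 in combined. No group of Nars libraries overlapped another, in the order control, Zmiz1, Notch1, combined. Nars rose by 0.60 (SE 0.05, adjusted p = 2.13e-05) in combined against control.

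Iars, the isoleucyl-tRNA synthetase (chr13:49682100-49734267), belongs to the multisynthetase complex. Control libraries were at 14.6, 14.3 and 14.4 FPKM, Zmiz1 at 14.9, 17.3 and 15.3, Notch1 at 18.3, 18.7 and 16.9, and combined at 21.3, 21.0 and 22.2. The combined libraries lay above all others, and the Notch1 and Zmiz1 libraries overlapped. Iars rose by 0.54 (SE 0.06, adjusted p = 4.50e-04). Vars, the valyl-tRNA synthetase (chr17:35000987-35016322), measured 12.2, 13.2 and 13.5 FPKM in control, 12, 12.2 and 14.4 in Zmiz1, 14.8, 17.2 and 14.8 in Notch1, and 16.6, 19.9 and 18.5 in combined. Notch1 and combined overlapped, and both lay above control. Vars rose by 0.47 (SE 0.09, adjusted p = 0.0122).

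The other 5 cytosolic members that rose in combined against control had differences between 0.29 and 0.43. Sars, which charges serine tRNA, went from 27.2 ± 0.747 FPKM (SD, n = 3) in control to 37.1 ± 1.24 in combined. Gars, which charges glycine tRNA, went from 51.2 ± 1.27 to 68.3 ± 3.58 FPKM, and Mars, the methionyl enzyme of the complex, from 32.2 ± 0.657 to 42.3 ± 0.862. Tars, which charges threonine tRNA, went from 44.7 ± 1.81 to 59.1 ± 4.13 FPKM, and Wars, which charges tryptophan tRNA, from 24.7 ± 1.12 to 30.4 ± 0.229. The control and combined libraries did not overlap for any of these 5 genes. Nor did they for Dars, Eprs, Hars, Qars and Rars, none of which was called in this comparison. The calls for Tars, Vars and Wars were the ones that did not hold when a library was left out. The count was 8 without control replicate 1, combined replicate 2 or combined replicate 3, 9 without control replicate 2, and 10 without control replicate 3 or combined replicate 1.

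The mean levels of the 11 genes that rose had a median of 29.3 FPKM, against 39.4 FPKM for the 9 others. The summed FPKM of the 11 was 287, 296 and 298 in control, 297, 312 and 314 in Zmiz1, 356, 375 and 360 in Notch1, and 400, 427 and 422 in combined. The sum of the 9 others was 383 ± 5.34 (SD, n = 3) in control, 380 ± 14.9 in Zmiz1, 391 ± 9.25 in Notch1 and 408 ± 12.2 in combined. Since the sets were formed from the combined comparison, these sums describe them and are not tested. Over all 20 cytosolic members the sum was 677 ± 11 FPKM in control and 824 ± 26.3 in combined.

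**Figure D2:**
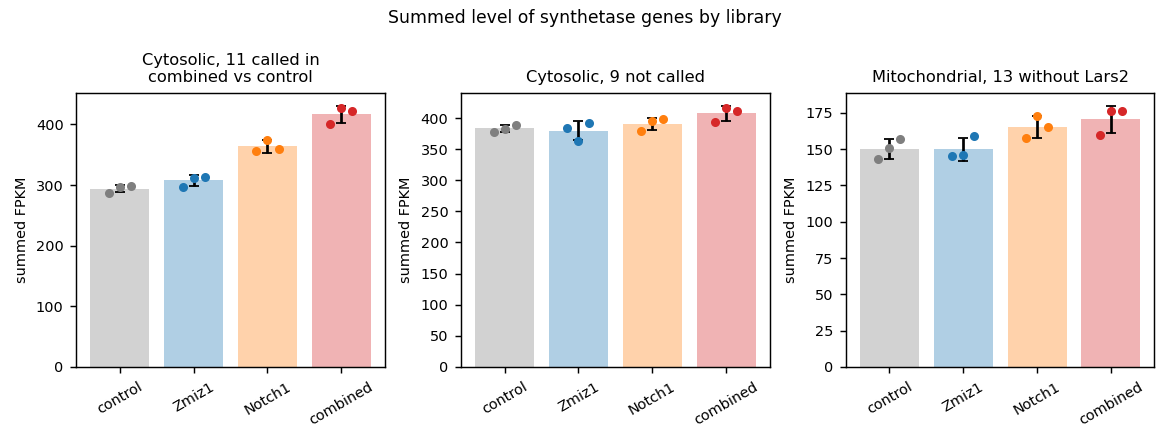
Summed FPKM per library (vertical axes, from 0) for the 11 cytosolic synthetases called in combined against control, the 9 not called, and the 13 mitochondrial synthetases without Lars2; bars are group means, points are libraries and error bars are SD (n = 3). The left panel climbs from a mean of 294 FPKM in control to 416 in combined, whereas the middle panel spans 380 to 408. The right panel includes Aars2, whose own mean was 21.7 FPKM in control and 38.3 in combined.

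The 9 cytosolic synthetases that passed the threshold in no comparison of the model over all 12 libraries were Dars, Eprs, Farsa, Farsb, Hars, Kars, Lars, Qars and Rars. In combined against control their differences ran from -0.07 to 0.22, and their lowest adjusted p was 0.183. Among them Dars, Eprs, Kars, Lars, Qars and Rars belong to the multisynthetase complex. Kars, the lysyl enzyme and the most abundant cytosolic member, was at 78.4 ± 2.47 FPKM in control and 81.6 ± 5.22 in combined, and the groups overlapped. Qars, the glutaminyl enzyme, was at 56.7 ± 0.734 FPKM in control and 54.1 ± 0.907 in combined. It was the only cytosolic member with a negative difference there, -0.07 (SE 0.05, adjusted p = 0.543). Eprs, a fused glutamyl- and prolyl-tRNA synthetase, was at 22.8, 24.3 and 24.0 FPKM in control and 25.2, 29.1 and 29.2 in combined. Its libraries did not overlap, but its difference of 0.22 (SE 0.09, adjusted p = 0.183) missed the threshold. Without Notch1 replicate 3 Eprs was called higher in combined against Zmiz1 (0.32, adjusted p = 0.0372).

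Farsa and Farsb encode the subunits of the phenylalanyl enzyme. Farsa was at 37.4 ± 2.78 FPKM in control and 42.2 ± 4.02 in combined, and Farsb at 23.3 ± 0.0181 and 24.1 ± 2.04. Both pairs of groups overlapped. Hars, which charges histidine tRNA, was at 45.6 ± 2.50 FPKM in control and 51.5 ± 2.09 in combined, a difference of 0.17 (SE 0.07, adjusted p = 0.183). Dars, Lars and Rars, the aspartyl, leucyl and arginyl enzymes, had differences of 0.13, 0.06 and 0.04, all uncalled.

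Split by the complex, 2 of the 8 cytosolic synthetases inside it rose in combined against control, Iars and Mars, with a median difference of 0.10. Outside it 9 of 12 rose, with a median of 0.42. The difference between these lists was not tested. None of the 3 scaffold genes was called: the difference was -0.06 for Aimp1, 0.22 for Aimp2 (adjusted p = 0.0936) and 0.14 for Eef1e1. By enzyme class, which follows the fold of the catalytic domain, 6 of 9 class I members and 5 of 10 class II members rose. Eprs was put in neither class. Of the 12 members commonly described as ATF4 targets 10 rose, with a median of 0.42. Of the other 8 cytosolic members 1 rose, Vars, with a median of 0.10. Over all genes tested 3.97% rose. The splits share genes, as most members described as ATF4 targets lie outside the complex, so they are not separate observations. These lists were written with earlier results of the same libraries known and are not independent evidence.

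Among the 14 mitochondrial synthetases Aars2, the alanyl enzyme (chr17:45506841-45520843), was the only one called in any comparison. It measured 18.2, 21.8 and 25.0 FPKM in control and 23.4, 27.3 and 31.5 in Zmiz1. It measured 27.0, 33.5 and 29.5 FPKM in Notch1 and 33.9, 39.9 and 41.1 in combined. The combined libraries lay above all others, while the Zmiz1 libraries overlapped both control and Notch1. Aars2 rose by 0.80 (SE 0.14, adjusted p = 0.00549) in combined against control. Its differences in Notch1 (0.46, adjusted p = 0.0839) and Zmiz1 (0.33, adjusted p = 0.341) against control were not called. With a replicate block in the limma model both were called (adjusted p = 0.00617 and 0.0495).

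The other 13 mitochondrial members had differences from -0.17 to 0.21 in combined against control, with a lowest adjusted p of 0.176. The ends of that range were Fars2, the phenylalanyl enzyme, and Yars2, the tyrosyl enzyme. Fars2 was at 17.7, 17.7 and 18.1 FPKM in control and 15.8, 16.3 and 15.2 in combined, a difference of -0.17 (SE 0.07, adjusted p = 0.218). Yars2 was at 6.69, 6.69 and 7.08 FPKM in control and 8.02, 8.13 and 8.03 in combined, a difference of 0.21 (SE 0.08, adjusted p = 0.176). Both genes had groups that did not overlap, yet neither passed the threshold. Without Zmiz1 replicate 2 Fars2 was called lower (adjusted p = 0.0359). Cars2, the cysteinyl enzyme, was at 9.26 ± 0.842 FPKM in control and 10.8 ± 0.415 in combined, a difference of 0.20 (SE 0.08, adjusted p = 0.186).

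The remaining 10 were Ears2, Iars2, Lars2, Mars2, Nars2, Rars2, Sars2, Tars2, Vars2 and Wars2. Their differences in combined against control lay between -0.05 (Vars2) and 0.14 (Ears2), and the groups overlapped for each of them. Lars2 was at 1288 ± 55.6 FPKM in control, 1376 ± 52.6 in Zmiz1, 1123 ± 198 in Notch1 and 1361 ± 145 in combined. Its low Notch1 mean came with 1 library at 895 FPKM, beside others at 1250 and 1223. The summed level of the 13 without Lars2 was 151 ± 7.14 FPKM in control, 150 ± 7.49 in Zmiz1, 166 ± 7.46 in Notch1 and 171 ± 8.90 in combined. Aars2, which is in this sum, alone went from 21.7 ± 3.38 FPKM in control to 38.3 ± 3.85 in combined. Most of the change in the sum was therefore that of Aars2. Hars2 and Pars2, mitochondrial synthetases outside the member list, were called in none of the comparisons.

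With the Notch1 mutant alone, 7 cytosolic synthetases rose against control and none fell. They were Aars (0.49), Cars (0.47), Yars (0.43), Nars (0.37), Iars (0.30), Sars (0.29) and Gars (0.26), with adjusted p-values from limma between 8.96e-04 (Nars) and 0.0322 (Gars). The comparison shares its control libraries with that of the combined group. Of all genes tested 3.19% rose and 2.3% fell. The median difference was 0.19 over the cytosolic members, 0.06 over the mitochondrial members and 0.02 over all genes. Vars (0.25, adjusted p = 0.164), Tars (0.22, 0.173), Wars (0.20, 0.0847) and Mars (0.17, 0.0811) were not called. Their groups did not overlap, but neither did those of Qars (-0.04, adjusted p = 0.724) and Rars (0.05, adjusted p = 0.679). No mitochondrial synthetase was called. At an unadjusted p under 0.05 there were 3 of 14, near the 18.8% of all genes tested. The nearest to the threshold were Aars2 and Yars2 (0.27, adjusted p = 0.0844).

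Aars, Nars and Sars passed in Notch1 against control under every alternative run, while Cars, Gars, Iars and Yars did not. Gars alone missed the threshold after quantile normalization (adjusted p = 0.0823). The count was 3 without control replicate 1 or 2, 4 without control replicate 3 or Notch1 replicate 2, 5 without Notch1 replicate 1 or 3, 6 without combined replicate 3, and 9 without Zmiz1 replicate 2. The myeloid marker list moved in the same comparison: its summed level was 97.8 to 102 FPKM in control, 91.4 to 100 in Zmiz1, 51.1 to 58.3 in Notch1 and 59.2 to 61.6 in combined. Itgam was its only marker at 1 FPKM or more, Elane was listed at 0, and Csf1r, Lyz2 and Cd14 had means under 0.1 FPKM. The part of these genes in the synthetase differences was not tested.

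Zmiz1 alone gave no call among the 34 members in the limma model without a replicate block, in either direction. Of all genes tested 1.07% rose and 1.03% fell. At an unadjusted p under 0.05 there were 2 cytosolic members, Tars (0.19, adjusted p = 0.389) and Qars (-0.12, adjusted p = 0.361), and 2 mitochondrial members, Aars2 (0.33) and Tars2 (-0.25, adjusted p = 0.375). Over all genes tested 12.8% were under the same value, so both counts were near the background. The median difference was 0.03 over the cytosolic and -0.02 over the mitochondrial members. Tars measured 46.0, 57.3 and 50 FPKM in Zmiz1 and 42.6, 46.1 and 45.3 in control, so the groups overlapped, and the highest Zmiz1 library was replicate 2. Without Zmiz1 replicate 2 no member was called either. Tars2, the mitochondrial threonyl enzyme, measured 10.9, 8.37 and 11.8 FPKM in Zmiz1 and 11.7, 12.5 and 12.9 in control. Its lowest value was again in Zmiz1 replicate 2.

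**Figure D3:**
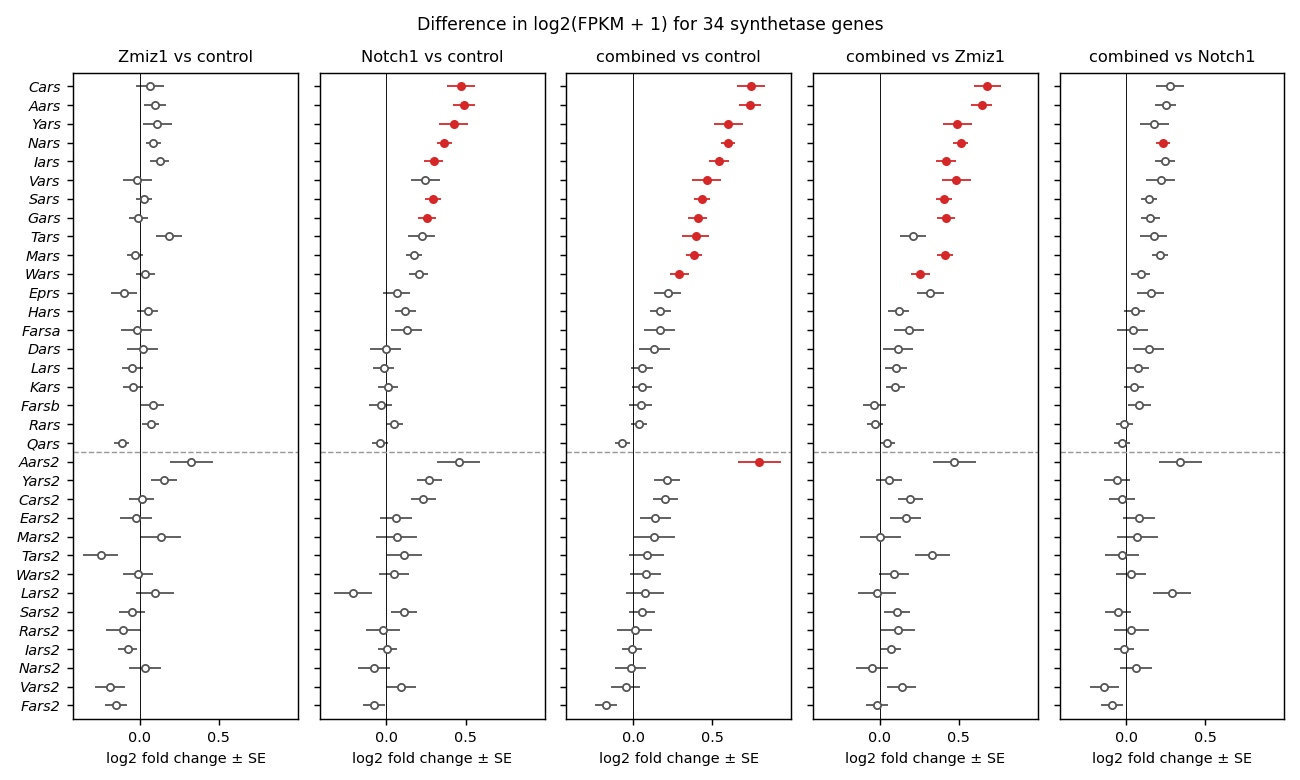
Log2 difference in FPKM + 1 (horizontal axis) with its SE for each of the 34 synthetases in 5 comparisons; filled red points passed an adjusted p of 0.05 and the dashed line separates cytosolic (above) from mitochondrial genes. Filled points number 0 in Zmiz1 against control, 7 in Notch1 against control and 12 in combined against control.

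Adding the Notch1 mutant where Zmiz1 was already present, combined against Zmiz1, came with a rise of 10 cytosolic synthetases, and none fell. Of all genes tested 2.67% rose and 1.19% fell. The largest differences were those of Cars (0.68, SE 0.09, adjusted p = 0.00128), Aars (0.64, SE 0.07, adjusted p = 3.61e-04), Nars (0.51, SE 0.05, adjusted p = 8.88e-05), Yars (0.49, SE 0.09, adjusted p = 0.0147) and Vars (0.48, SE 0.09, adjusted p = 0.0148). Iars and Gars (0.42 each), Mars and Sars (0.41 each) and Wars (0.26) also rose. Tars was not called here (0.21, SE 0.08, adjusted p = 0.245), and its groups overlapped. The median was 0.29 over the cytosolic members, 0.10 over the mitochondrial members and 0.02 over all genes. No mitochondrial member was called. At an unadjusted p under 0.05 there were 3 of 14, among them Aars2 (0.47, adjusted p = 0.0935), near the 15.8% of all genes tested. The cytosolic count was 7 without Zmiz1 replicate 1 or without combined replicate 2 or 3. With only these 6 libraries in the fit it was 5, as Gars, Iars, Vars, Wars and Yars missed the threshold. The call for Wars held when Zmiz1 replicate 2 or Notch1 replicate 3 was left out and not without any of the other 10 libraries. It also ended after median ratio scaling (0.23, adjusted p = 0.0601). Without Zmiz1 replicate 2 the count was 10.

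Adding Zmiz1 where the Notch1 mutant was present, combined against Notch1, came with 1 call among the members, Nars, which rose by 0.23 (SE 0.05, adjusted p = 0.0319). Of all genes tested 0.827% rose and 0.68% fell. The cytosolic median was 0.15, with 18 of 20 differences positive, against a median of -0.0003 and 49.6% positive over all genes. At an unadjusted p under 0.05 there were 8 of 20 cytosolic members and 2 of 14 mitochondrial ones, against 9% of all genes tested. Cars (0.28, adjusted p = 0.225), Aars (0.25, 0.142), Iars (0.25, 0.108) and Mars (0.21, 0.0787) missed the threshold. The combined libraries lay above the Notch1 libraries for each, as they also did for Dars (0.14, adjusted p = 0.826). The Nars call did not hold without any 1 of 8 libraries: each control and each combined library, and Notch1 replicates 1 and 2 (adjusted p from 0.0552 to 0.153). Without Zmiz1 replicate 2 there were 3 calls, Nars, Iars and Mars.

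The interaction asks whether the combined difference departs from the sum of the Notch1 and Zmiz1 differences. No member was called in limma, and of all genes tested 0.0197% were called higher and 0.0493% lower. The smallest adjusted p among the members was 0.999. At an unadjusted p under 0.05 there were 2 cytosolic members, Mars (0.24, SE 0.07) and Nars (0.15, SE 0.06), and no mitochondrial one, against 3.27% of all genes tested. The cytosolic values were positive for 18 of 20 members, with a median of 0.12 against 0.0005 over all genes. For Mars the sum of the single differences was 0.14 and the combined difference 0.38. For Aars2 the sum was 0.79 and the combined difference 0.80, so the interaction was 0.01. A p above the threshold does not show that the effects added up.

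**Figure D4:**
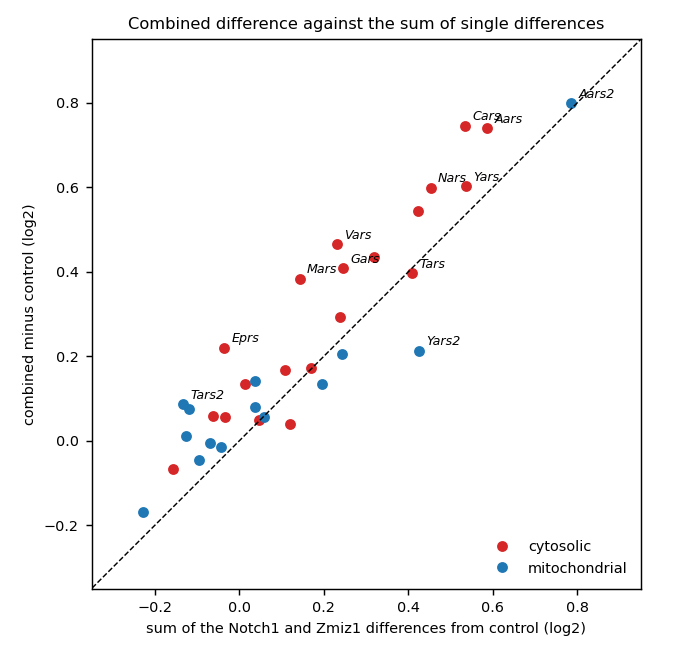
Combined minus control difference (vertical axis, log2) against the sum of the Notch1 and Zmiz1 differences from control (horizontal axis, log2) for the 34 synthetases; the dashed line marks equality. Most cytosolic genes lie above the line, Mars at 0.38 against 0.14 among them, and Aars2 lies on it; no departure passed the limma test.

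Ranked by group mean, combined was the highest of the 4 groups for 17 of the 20 cytosolic members and 4 of the 14 mitochondrial members, against 21.7% of all genes tested. The order control, then Notch1, then combined was met by 15 of the 20 cytosolic members, 4 of the 14 mitochondrial members and 22.2% of all genes. Neighbours in this order did not always differ beyond their spread, as the overlapping Notch1 and combined libraries of Yars and Vars show.

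The promoters of the members were searched for 3 short motifs because 11 of the 20 cytosolic members rose in combined against control. The windows ran from 250 bases before to 50 bases after the RefSeq transcript start on GRCm38.p6. A window was found for 27 members, and Cars, Hars, Lars, Nars, Rars, Vars and Wars had none. The motifs were the C/EBP-ATF composite element TGATGNAA, the element through which ATF4 acts, the E-box CACGTG and the CSL core TGGGAA, each on both strands. The C/EBP-ATF element was in 5 of 13 cytosolic windows (38.5%) and 0 of 14 mitochondrial genes, against 4.51% of all 27025 genes with a window. All 5 genes, Aars, Gars, Iars, Tars and Yars, were among the 7 with a window that rose in combined. None of the 6 uncalled cytosolic genes with a window held it. One match of each gene with its flanks, 30 bases each on the gene's strand with the 8 matched bases in capitals, is given because these 5 members rose in combined.
Aars, chr8:111033840-111033869, plus strand, 10 bases after the start: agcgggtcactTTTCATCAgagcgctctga
Gars, chr6:55037960-55037989, plus strand, 30 bases before the start: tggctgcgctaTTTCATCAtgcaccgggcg
Iars, chr13:49682126-49682155, plus strand, 8 bases after the start: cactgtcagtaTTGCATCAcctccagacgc
Tars, chr15:11399655-11399684, minus strand, 15 bases before the start: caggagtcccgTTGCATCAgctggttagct
Yars, chr4:129189895-129189924, plus strand, 4 bases after the start: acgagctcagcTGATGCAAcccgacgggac

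The match of Yars read TGATGCAA on the gene's strand, and the other 4 printed here lay on the opposite strand, so that their capitals are the reverse complement of the element. In the GENCODE annotation the printed matches of Gars and Tars lay outside exons, those of Aars and Iars in untranslated exon sequence, and that of Yars in an exon annotated as untranslated or coding in different transcripts. The E-box was in 4 of 13 cytosolic genes (Aars, Farsb, Iars and Tars) and in 1 of 14 mitochondrial genes (Ears2), against 8.09% of all genes. Split by call in combined against control, it was in 3 of 7 cytosolic genes that rose and 1 of 6 uncalled ones. The CSL core was in 2 of 13 cytosolic genes (Aars and Farsb) and in 1 of 14 mitochondrial genes (Tars2), against 28.3% of all genes. By the same split it was in 1 of 7 and 1 of 6. Matches of different motifs did not overlap. A match is a description of the letters in the window and says nothing of binding.

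Because the library kit keeps no strand, reads from overlapping genes can be shared, and 12 of the 34 members overlapped another annotated gene in an exon. Of the members that rose, Mars overlaps Ddit3, a stress-response transcription factor gene on the opposite strand. Ddit3 was at 22.5 ± 4.25 FPKM (SD, n = 3) in control and 23.9 ± 3.36 in combined, and was not called. Aars overlaps Exosc6, an exosome subunit gene on the same strand, which was at 10.5 ± 0.514 FPKM in control and 13.5 ± 1.01 in combined. Yars overlaps C77080 on the opposite strand, at 0.270 ± 0.0643 FPKM in control and 0.344 ± 0.0612 in combined. Cars overlaps the pseudogene Gm15580. These 4 overlapping genes were named after the values had been seen, and their part in the synthetase values was not tested.

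Some genes of the amino acid response rose beside the cytosolic synthetases. Of 16 tested, 9 rose and none fell in combined against control, 6 rose in Notch1 and 1, Cth, in Zmiz1 against control. Of all genes tested 3.97%, 3.19% and 1.07% rose in these comparisons. In Notch1 against control 14 of the 16 differences were positive and 10 genes were not called, among them Ddit3 (0.007) and Sesn2 (-0.14). The median differences of the 16 in combined, Notch1 and Zmiz1 against control were 0.53, 0.37 and 0.07. Asns, the asparagine synthetase, measured 1.93, 2.12 and 1.39 FPKM in control and 2.21, 2.29 and 2.30 in Zmiz1. It measured 10.4, 9.41 and 11 FPKM in Notch1 and 13.3, 14.5 and 14.3 in combined. The Notch1 and combined libraries lay above the others without overlap, and Asns rose by 2.01 and 2.43 (SE 0.09 each) against control. Atf4 itself measured 70.1, 69.5 and 74.5 FPKM in control, 81.0, 81.7 and 81.6 in Zmiz1, 84.2, 83.9 and 98.4 in Notch1 and 94.8, 101 and 98.5 in combined. Its rise was 0.31 (adjusted p = 0.0222) in Notch1 and 0.45 (adjusted p = 0.00204) in combined. Without control replicate 1 or 2 the Notch1 value of Atf4 was not called (adjusted p = 0.0841 and 0.102), nor with only the control and Notch1 libraries in the fit (adjusted p = 0.096).

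Serine and one-carbon enzymes were among those that rose. Shmt2, which moves a one-carbon unit from serine in mitochondria, went from 26.4 ± 0.497 FPKM in control to 43.2 ± 1.95 in Notch1 and 60.9 ± 2.17 in combined. Mthfd2, its downstream folate enzyme, rose by 0.70 in Notch1 and 0.82 in combined, and Phgdh, the entry to serine synthesis, by 0.67 and 0.75. Psat1, the next enzyme of serine synthesis, rose by 0.51 and 0.62. Aldh18a1, an enzyme of proline synthesis, rose by 0.72 in combined. Cth, the enzyme that makes cysteine from cystathionine, rose by 0.55 in Zmiz1 (adjusted p = 9.00e-04) and by 0.25 in combined (adjusted p = 0.0358). The combined value of Cth was not called when any 1 control or combined library was left out (adjusted p from 0.0579 to 0.156). It also missed the threshold with no filter (adjusted p = 0.0621), with a filter at 5 FPKM (adjusted p = 0.0843) and after median ratio scaling (adjusted p = 0.0642).

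Of the 10 amino acid transporter genes tested, 3 rose and 1 fell in combined against control, and 2 rose and 2 fell in Notch1. Over all genes tested 3.97% rose and 2.49% fell in combined, and 3.19% rose and 2.3% fell in Notch1. Slc7a5, the light chain of a transporter of large neutral amino acids, went from 22.5 ± 0.954 FPKM in control to 26.8 ± 2.35 in Zmiz1, 36.4 ± 2.13 in Notch1 and 48.1 ± 1.27 in combined. Slc3a2, its heavy chain, rose by 0.32 in Notch1 and 0.54 in combined, and Slc7a1, a transporter of basic amino acids, by 0.72 in combined. Slc43a1, another carrier of large neutral amino acids, fell by 0.35 in Notch1 and by 0.33 in combined. Slc38a1, a glutamine carrier, fell by 0.37 in Notch1 (adjusted p = 0.042). Slc1a4, a carrier of small neutral amino acids, rose by 0.55 in Zmiz1 (adjusted p = 0.0158). The calls of Slc3a2 and Slc38a1 in Notch1, and of Slc1a4 in Zmiz1, did not hold without some single libraries, Slc1a4 for instance without any 1 control library (adjusted p from 0.0543 to 0.0912). None of these 3 calls held in a fit of 6 libraries, the single-insert group and control (adjusted p = 0.0605, 0.125 and 0.157 in the same order), nor that of Slc38a1 with no filter (adjusted p = 0.0558).

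Some other genes of the translation machinery were called. Of the 6 cytosolic elongation factors, 1 fell in Notch1 against control, where 2.3% of all genes tested fell. It was Eef2, which moves the ribosome along the message and fell by 0.25 (limma adjusted p = 0.0288). In combined against control 1 of the 6 rose, where 3.97% of all genes tested rose. It was Eef1g, a subunit of the factor that recharges Eef1a, which rose by 0.21 (adjusted p = 0.0354). Of 17 tested genes of tRNA maturation and export, 2 tRNA methyltransferase genes rose in combined, against 3.97% of all genes tested: Nsun2 by 0.24 (adjusted p = 0.022) and Trmt61a by 0.35 (adjusted p = 0.0279). Each of these 4 calls was lost when certain single libraries were left out. The call of Eef2 did not hold with no filter (adjusted p = 0.101) or with only the control and Notch1 libraries in the fit (adjusted p = 0.159). Quantile normalization ended the calls of Eef2 (adjusted p = 0.281) and Eef1g (adjusted p = 0.14), and median ratio scaling that of Eef1g (adjusted p = 0.0677). None of the 9 mitochondrial translation factors, the 4 tested genes of the mitochondrial glutaminyl-tRNA amidotransferase and of formylation, or the 4 tested trans-editing and synthetase-like genes was called in Notch1 or combined against control.

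Myc, a transcription factor gene known to drive growth in T cell leukemia, was lowest in control and highest in combined. It measured 0.0828, 0.106 and 0.0274 FPKM in control, 0.285, 0.610 and 0.499 in Zmiz1, 0.721, 0.811 and 0.887 in Notch1, and 5.91, 6.76 and 6.87 in combined. The 4 groups did not overlap. Myc was called in the limma interaction (1.61, SE 0.14, adjusted p = 0.0019), though not with a pseudocount of 0.1 FPKM (1.17, adjusted p = 1). Its control values lay far below the pseudocount of 1 FPKM, so its log2 differences depend on that setting. As ratios of mean FPKM to control, Myc was at 11.2 in Notch1, 6.46 in Zmiz1 and 90.5 in combined. The Myc interaction is therefore not set against those of the synthetases. Ngfr, the marker of the second vector, was at 82.8 to 88.9 FPKM in control, 61.4 to 80.3 in Notch1, 7.23 to 7.71 in Zmiz1 and 5.62 to 5.66 in combined.

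The share of higher against lower calls over all genes depended on the scaling. As deposited, 58.2% of the calls in Notch1 against control were higher, but 48.1% after median ratio scaling and 47.5% after quantile normalization. In combined against control the shares were 61.4%, 52.6% and 48.1%, and in combined against Zmiz1 they were 69.1%, 58.9% and 60.3%. The same 11 cytosolic members were called higher in combined against control under both scalings.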

How the data were processed

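Per the labels' protocols, RNA of sorted cells went into unstranded libraries (TruSeq mRNA v2). The deposited values are FPKM, 1 per gene symbol and library, per the file headers. The submitters' processing notes name the build mm10 and the tools Cuffdiff 2.1.1, Cufflinks, Bowtie2 2.1.0.0, TopHat2 2.0.9 and FastQC 0.10.0; their order, settings, annotation and any scaling between libraries are not given in the sources used here. Depth in reads is unknown, so values carry no counting interval; relative depth was estimated from the spacing of low FPKM values.

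Of 23284 symbols 6449 were at 0 in all 12 libraries, and the 10152 with a mean of at least 1 FPKM were tested. One limma model (3.58.1, R 4.3.3) on log2(FPKM + 1), with a pseudocount of 1, held the 4 group means, with an intensity trend and two-sided tests. P-values were adjusted by Benjamini-Hochberg over all genes tested, with a threshold of 0.05. Log2 differences understate the change of low genes. Groups followed the titles. Members and lists were chosen with earlier results of these data known. Values in every library are given for up to 5 called members per comparison and class with the largest difference and no overlap, for up to 4 called genes of each related list the difference is given, and Zmiz1, Notch1, Ngfr, Myc, Atf4 and Asns are always given; Eprs, Fars2, Yars2, Tars, Tars2 and Psat1 were added after their values were seen. Alternatives were a pseudocount of 0.1, no filter or one at 5 FPKM, median ratio scaling, quantile normalization, a replicate block, a fit of the compared groups alone, and each library left out in turn, where a group of 2 is assumed to vary like the others. A few marker genes, 1 related gene and 1 sequence are not reported here. The pipeline was tested on simulated data for Notch1 against control. It recovered 24% of 1.25-fold, 74% of 1.5-fold, 94% of 2-fold and 100% of 3-fold changes, and 6.41% of its calls were false. A small change can therefore go uncalled. Promoter windows are from RefSeq and gene positions from GENCODE. Python 3.11.15 and matplotlib 3.10.9 were used for the figures.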

Additional observations from a re-analysis of the deposited data

How the results depend on the processing

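No member reversed its direction under any alternative in a comparison that had called it. The signs of uncalled members were not followed. In Zmiz1 against control the cytosolic median ran from -0.0009 to 0.0569 when 1 library was left out. Calls among members were lost in 20 of 133 alternative fits in Notch1 against control, 13 of 228 in combined against control, 22 of 190 in combined against Zmiz1 and 9 of 19 in combined against Notch1, each fit counted once per called member. The replicate block gave 1 mitochondrial call, Aars2, in Notch1 and in Zmiz1 against control and in combined against Zmiz1, and 2 cytosolic calls in combined against Notch1 (Nars and Cars). It also gave 10 cytosolic calls in Notch1 against control, with Mars, Tars and Wars added, 12 in combined against control, with Farsa (adjusted p = 0.0425), and 12 in combined against Zmiz1, with Farsa (adjusted p = 0.0388) and Eprs (adjusted p = 0.0472). Over all genes it gave 1059 calls in Notch1 against control, 365 in Zmiz1 against control, 1158 in combined against control, 721 in combined against Zmiz1 and 260 in combined against Notch1. Deviations of same-numbered libraries correlated between -0.176 and 0.267 in 18 pairs, 6 of them over 0.1. Of the 18, 10 matched best with their own number among the 3 libraries of the other group. The main model took the numbers as unpaired, and whether same-numbered libraries share a batch was not tested. With a fit of the compared groups alone there were 3 mitochondrial calls in combined against control (Aars2 and Yars2 higher, Fars2 lower), 5 cytosolic calls in combined against Zmiz1 and 0 in combined against Notch1; over all genes there were 49 calls in Zmiz1 against control, 1386 in combined against control and 155 in combined against Zmiz1. Without a filter there were 2 cytosolic calls in combined against Notch1 and 18 interaction calls over all genes. The interaction gave 3 calls with a pseudocount of 0.1 and 3 with a filter at 5 FPKM, and 4 after quantile normalization. That filter gave 121 calls over all genes in Zmiz1 against control and 101 in combined against Notch1. The cytosolic median in combined against control was 0.30 after quantile normalization. Leaving out 1 library gave 3 to 9 cytosolic calls in Notch1 against control, 0 to 3 in combined against Notch1, and 0 to 1 and 1 to 2 mitochondrial calls in Notch1 and combined against control. Over all genes it gave 272 to 989, 74 to 241 and 339 to 1090 calls in Notch1, Zmiz1 and combined against control, 184 to 505 in combined against Zmiz1 and 75 to 306 in combined against Notch1; the highest counts came without Zmiz1 replicate 2 or Notch1 replicate 3. The cytosolic median ran from 0.25 to 0.33 in combined against Zmiz1. The mitochondrial medians ran from 0.0283 to 0.106 in combined, 0.0090 to 0.114 in Notch1 and -0.0838 to 0.0174 in Zmiz1 against control, and from 0.0022 to 0.0970 in the interaction. The causes of these shifts were not tested.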
